A study of Mus musculus with 50 samples.

Results

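Nppb, Sst, Nts, Il31ra, Osmr, Cysltr2 and Mrgpra3 were followed in the dorsal root ganglia of 25 inbred mouse strains. These 7 genes were chosen by name as genes of itch-sensing neurons, and every probe set annotated to 1 of them was taken, which gave 10 of the 45037 probe sets that are not array controls. Nppb, Sst, Nts, Cysltr2 and Mrgpra3 had 1 probe set each, Il31ra had 2 and Osmr had 3. The ganglia came from naive wildtype mice that were 2 months old, and no animal was treated, injured or engineered. Each strain gave 1 array of RNA pooled from 3 males and 1 array of RNA pooled from 3 females, 50 arrays in all, so that a strain's replicates are these pools, and the spread between single mice was not measured. The strains, spelled as in the labels, were 129S1/Sv1mJ, A/J, AKR/J, BALB/CByJ, BTBT T+tf/J, BUB/BnJ, C3H/HeJ, c57BL/6J, C57BR/cdJ, C58/J, CBA/J, DBA/2J, FVB/NJ, KK/HIJ, MRL/MpJ, NOD/LtJ, NON/LtJ, NZO/HILtJ, NZW/LacJ, P/J, PL/J, RIIIS/J, SJL/J, SM/J and SWR/J. The series title points to a nicotinic receptor subunit and chronic pain. The itch genes are described here from the same arrays.

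The dorsal root ganglion holds the cell bodies of the sensory neurons of skin, muscle and viscera, among them neurons that carry itch to the spinal cord. One class of itch neurons makes the natriuretic peptide encoded by Nppb together with somatostatin (Sst) and neurotensin (Nts), and bears the interleukin 31 receptor, formed by the products of Il31ra and Osmr, and the leukotriene receptor encoded by Cysltr2. Another class bears the Mas-related receptor encoded by Mrgpra3, which responds to chloroquine. The question asked of the strains was therefore how far each gene varied, whether both pools of a strain gave the same level, and whether the genes of the Nppb class rose and fell together and apart from Mrgpra3. In RNA from a whole ganglion, fewer cells of a type and less RNA per cell cannot be told apart.

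Levels are given as log2 of the deposited intensity + 1, and a strain's level is the mean of its 2 arrays. They depend on how well each probe set binds, so a level is compared only between strains for the same probe set. A gene was called for strain when limma's moderated F test over the 25 strain means, with sex as a term, gave an adjusted p (Benjamini-Hochberg, over all probe sets tested) under 0.05. A probe set was tested when its level was above 4 in at least 2 arrays, and for genes with several probe sets the one with the highest mean led. Of the 10 probe sets, 9 passed this filter. The third of Osmr lay between 2.79 and 3.02 in all 50 arrays and was not tested, and Cysltr2 passed only through 2 female arrays.

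The arrays had 18703 to 19327 probe sets above 4. All 12 pan-neuronal marker genes were tested, and the mean of this list varied between strains only from -0.28 to 0.18 around its overall mean. Of the 12 spinal cord markers on the array, 2 were tested (Aqp4 and Gad1), and Gad2, Gfap, Mog, Olig1, Olig2, Slc32a1 and Slc6a5 stayed below 4 in every array. Some arrays stood apart from their labels. The female SM/J array had the Y-linked Eif2s3y at 6.82, but Xist at 9.43 and the Y-linked Kdm5d at 2.67. That Kdm5d level is within the female range of 2.66 to 2.77 and below the male range of 3.68 to 5.58. Of the 25 male arrays 6 had Xist above 5, led by PL/J at 8.97, BTBT T+tf/J at 7.78 and SWR/J at 6.73. Results that move without SM/J and PL/J are given with that change. Transcripts of adjacent tissue also varied. The summed intensity of 8 muscle and liver markers ran from 99.1 to 4819 over the arrays, with albumin (Alb) at 8.88 in DBA/2J against a mean of 3.48 over all arrays, and the muscle actin Acta1 at 10.72 in SM/J against 7.01. The mean of this list had r between -0.27 and 0.28 with the 7 genes over strain means. With Osmr, r was -0.44 for Ckm, -0.40 for Mylpf, -0.35 for Myh4 and -0.32 for Acta1, the muscle genes of the list. For its liver genes r with Osmr was 0.02 for Alb, 0.00014 for Ttr, 0.01 for Serpina1c and -0.12 for Apoa1. The part of adjacent tissue in the levels of the 7 genes was not tested. The male and female arrays had lowest intensities of 1.629 to 1.655 and of 1.726 to 1.744, 2 ranges that do not overlap, so sex and a separate normalization of the sexes cannot be told apart.

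The 3 peptide genes are the ones whose joint rise and fall was asked about, and the 100 bases before the start site of each are shown for that reason (RefSeq, GRCm38.p6, 5′ to 3′ on the gene's strand), with matches to the cAMP response element TGACGTCA, the AP-1 element TGAGTCA and the TATA sequence TATAAA in capitals. Both strands of 300 bases were searched, from 250 before to 50 after the start.
Nppb, chr4:147985800-147985899, plus strand: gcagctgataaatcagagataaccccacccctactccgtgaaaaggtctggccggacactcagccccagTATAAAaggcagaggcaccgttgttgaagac
Sst, chr16:23890845-23890944, minus strand: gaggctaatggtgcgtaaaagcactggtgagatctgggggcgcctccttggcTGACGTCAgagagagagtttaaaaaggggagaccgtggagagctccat
Nts, chr10:102490419-102490518, minus strand: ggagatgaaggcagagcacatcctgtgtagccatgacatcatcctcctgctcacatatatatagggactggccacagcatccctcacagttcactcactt
The Sst promoter held TGACGTCA with its first base at -48 from the start, and 588 of all 32851 promoters in the table (1.79%) held that sequence anywhere in the window. The Nppb promoter held TATAAA at -31, and 13.6% of promoters held that sequence anywhere in the window. The only match of Nts was TGAGTCA at -207, outside the bases shown, a sequence in 5.20% of promoters. None of these 3 motifs occurred in more than 1 of the 3 windows. The RefSeq table matched 6 of the 7 genes and held none for Mrgpra3. The windows of Il31ra, Osmr and Cysltr2 had no match to these motifs. A match describes the sequence only.

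Of the 7 genes, 4 were called for strain by their leading probe set, namely Mrgpra3, Sst, Nts and Osmr, against 24.7% of all 22205 probe sets tested. Nppb, Il31ra and Cysltr2 were not called. The range of strain means over all probe sets tested had a median of 0.87, and the 7 genes spread over nearly the whole distribution of that range. By leading probe sets, Mrgpra3 had a wider range than 99.8% of tested probe sets, Nts than 98.9%, Sst than 98.5% and Osmr than 88.9%. Nppb had a wider range than 79.3%, Il31ra than 41.8% and Cysltr2 than 34.9%. The second probe sets of Osmr and Il31ra had wider ranges than 94.4% and 82.4%.

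Mrgpra3 (chromosome 7, 47588950 to 47601372 in GRCm38.p6) split the strains into a group of 21 and a group of 4. The lowest of the 42 arrays of the upper group was male CBA/J at 6.98, and the highest of the other 8 arrays was female NON/LtJ at 3.95. In NON/LtJ the male and female arrays read 3.84 and 3.95, in NZW/LacJ 3.57 and 3.94, in P/J 3.68 and 3.79, and in SJL/J 2.76 and 3.76. All 8 arrays of these strains lay below the filter level of 4, and no array of the other strains did.

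**Figure D1:**
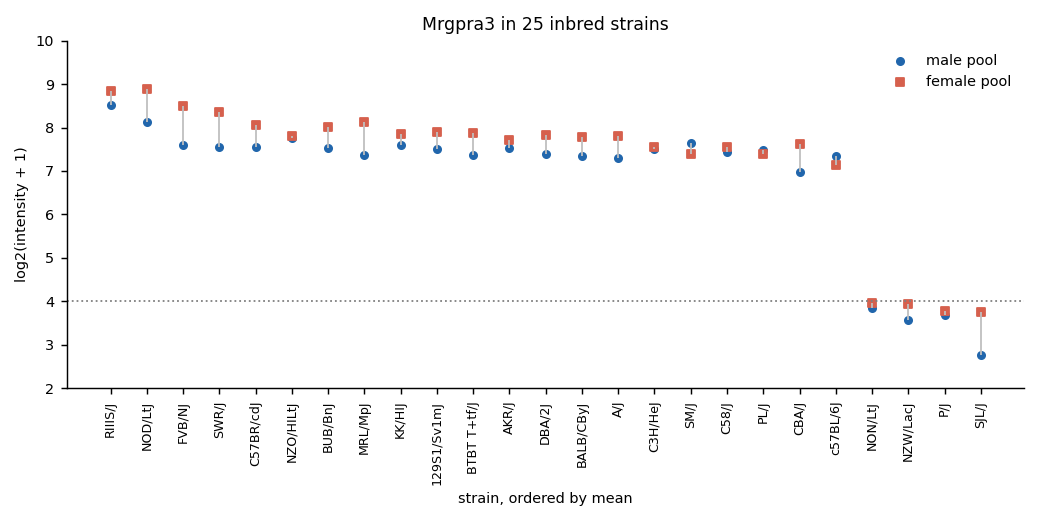
Level of Mrgpra3 (vertical axis, log2 of intensity + 1) in the male (blue circles) and female (red squares) pool of each of 25 strains, ordered by the strain mean, with a grey line joining the pools and a dotted line at the filter level of 4. NON/LtJ, NZW/LacJ, P/J and SJL/J lie below 4 in both pools and the other 21 strains at 6.98 or above.

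The range of Mrgpra3 strain means was 5.43, from RIIIS/J at 8.69 (male 8.52, female 8.85) to SJL/J at 3.26, and was called (limma F test, adjusted p = 1.87e-17). Since both SJL/J arrays lie below 4, the ratio is a lower bound: set against the level of 4, RIIIS/J was at least 25.8-fold higher in intensity + 1, and c57BL/6J, the lowest strain of the upper group, lay 3.24 above it. With a pseudocount of 16 the range was 4.10. Against the mean of the other 24 strains, SJL/J differed by -3.98, P/J by -3.48, NZW/LacJ by -3.46 and NON/LtJ by -3.31, each with a standard error of 0.17, as measured and with the low level not above the filter. At the upper end RIIIS/J was higher by 1.68, NOD/LtJ (8.13 and 8.90) by 1.50 and FVB/NJ (7.59 and 8.50) by 1.01. The FVB/NJ call was lost with a pseudocount of 16, with a pan-neuronal covariate, without SJL/J and in 4 of the 50 fits that left out 1 array. The 4 low strains are part of the mean that each of these strains was set against. The other 18 strains of the upper group formed a narrow band, from SWR/J at 7.96 through BTBT T+tf/J at 7.62 and C58/J at 7.50 to c57BL/6J at 7.24. With a residual SD of 0.23 per array, a pair of strain means had to lie 0.48 apart for the 95% interval of their difference to leave out 0, so most neighbours in the order could not be separated. Of the 24 pairs of neighbouring strains 3 had arrays that did not overlap after centring each sex on its mean, but only the step from c57BL/6J to NON/LtJ involves a level above 4. The 4 low strains have no reliable order among themselves.

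Of the 17 Mas-related receptors listed, 8 had a probe set, and only Mrgpra3 and Mrgpre were tested. Mrgpre, a receptor of the same family on the same chromosome, did not show the split. It read 5.58 in SJL/J, 5.39 in NZW/LacJ, 5.19 in P/J and 5.13 in NON/LtJ around a mean of 5.22, with a range of 0.62 over all strains and no call (limma, adjusted p = 0.78). Mrgpra1, Mrgpra4, Mrgprb1, Mrgprf, Mrgprg and Mrgprh stayed below 4 in every array. Some receptors of this family are near copies of each other, and whether the Mrgpra3 probes also bind other members was not tested.

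Sst, whose product somatostatin inhibits neighbouring cells through its own receptors, had a range of 3.20 (limma F test, adjusted p = 0.000139). Its leading strains were BTBT T+tf/J with a male array at 7.17 and a female array at 7.04, NZW/LacJ with 6.90 and 7.07, and DBA/2J with 6.81 and 6.88. At the other end stood C57BR/cdJ with 3.43 and 4.38, below every other array, of which the lowest was male BUB/BnJ at 5.28. Its mean of 3.91 is below 4, and against that level BTBT T+tf/J was at least 8.62-fold higher in intensity + 1. With a pseudocount of 16 the range was 2.33. The strains between them fell from 129S1/Sv1mJ at 6.84 through c57BL/6J at 6.18 to BALB/CByJ at 5.41. C57BR/cdJ differed from the mean of the other strains by -2.32 (SE 0.28, adjusted p = 2.21e-06, limma), a call kept in all 50 fits that left out 1 array. The same strain had the highest mean of the macrophage markers, +0.74 around their overall mean, with 8 of 9 tested and Cd68 below 4 in every array. The summed intensity of these markers ran from 336 to 1665 over the arrays, and their list mean had r = -0.24 with Sst and 0.34 with Osmr over 25 strain means. Their part in the C57BR/cdJ levels was not tested. BTBT T+tf/J was higher by 1.02 (SE 0.28, adjusted p = 0.0399, limma). This call was lost in 8 of the 50 fits that left out 1 array, among them those without either array of the strain. It was also lost with arrays centred on their medians, no filter, no sex term and a pseudocount of 16. The male BTBT T+tf/J array also had the highest 3′ minus 5′ difference of the Gapdh control probes, 0.60, a sign of shortened RNA. The strain had the highest mean of the sympathetic ganglion markers (+0.50 around their overall mean, 4 of 6 tested). It was highest for Chrna3 at 6.66 and Chrnb4 at 3.82, the latter above 4 in only 2 arrays. Dbh and Npy, the other tested markers, were highest in 129S1/Sv1mJ and SJL/J. The part of shortened RNA and of these markers in the Sst level was not tested.

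Nts, which encodes the peptide neurotensin, had a range of 3.60 or 12.1-fold (limma F test, adjusted p = 0.00381) and the widest spread between the pools of a strain. Its residual SD of 0.68 per array exceeded that of 99.5% of tested probe sets. SJL/J had the highest mean, 8.48, but its male array read 10.14, the highest of all 50, and its female array 6.81. P/J read 9.00 and 7.34, and c57BL/6J, next in the order, 8.30 and 7.78. The female P/J array had the highest 3′ minus 5′ difference of the Gapdh control probes among female arrays, 0.34. The part of shortened RNA in the P/J levels was not tested. The bottom of the order was FVB/NJ with 4.98 and 4.77, PL/J with 6.05 and 4.67, BUB/BnJ with 6.42 and 4.44, and AKR/J with 5.77 and 5.36. FVB/NJ differed from the other strains by -2.33 (SE 0.49, adjusted p = 0.00473, limma), which its pools shared, although the call was lost without either of them. The calls of PL/J (-1.83, adjusted p = 0.0338) and BUB/BnJ (-1.75, adjusted p = 0.0445, limma) were less stable. Both were lost with no filter, no sex term, the pan-neuronal covariate and a pseudocount of 16. The PL/J call was also lost without the female PL/J array, and the BUB/BnJ call in 28 of the 50 fits that left out 1 array of any strain. Without SJL/J the range of Nts was 3.29 and the adjusted p 0.000217 (limma).

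Nppb, whose product is the natriuretic peptide that these neurons release onto the spinal cord, varied less. The lowest of its 50 arrays read 6.59 (male BUB/BnJ), the median 7.32 and the highest 8.57 (female NOD/LtJ). NZW/LacJ led with 8.17 and 8.11, and NOD/LtJ followed with 7.56 and 8.57. C57BR/cdJ with 6.78 and 6.83, FVB/NJ with 6.93 and 6.78 and DBA/2J with 6.90 and 6.88 closed the order. The range was 1.33 or 2.52-fold and missed the threshold (limma F test, adjusted p = 0.0513). It passed without SM/J and PL/J (adjusted p = 0.0338, limma) and in 11 of the 50 fits that left out 1 array. No neighbouring strains were apart in both pools. The largest gap between the pools of a strain was 1.40 in SWR/J, where the male array read 6.76 and the female array 8.17.

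**Figure D2:**
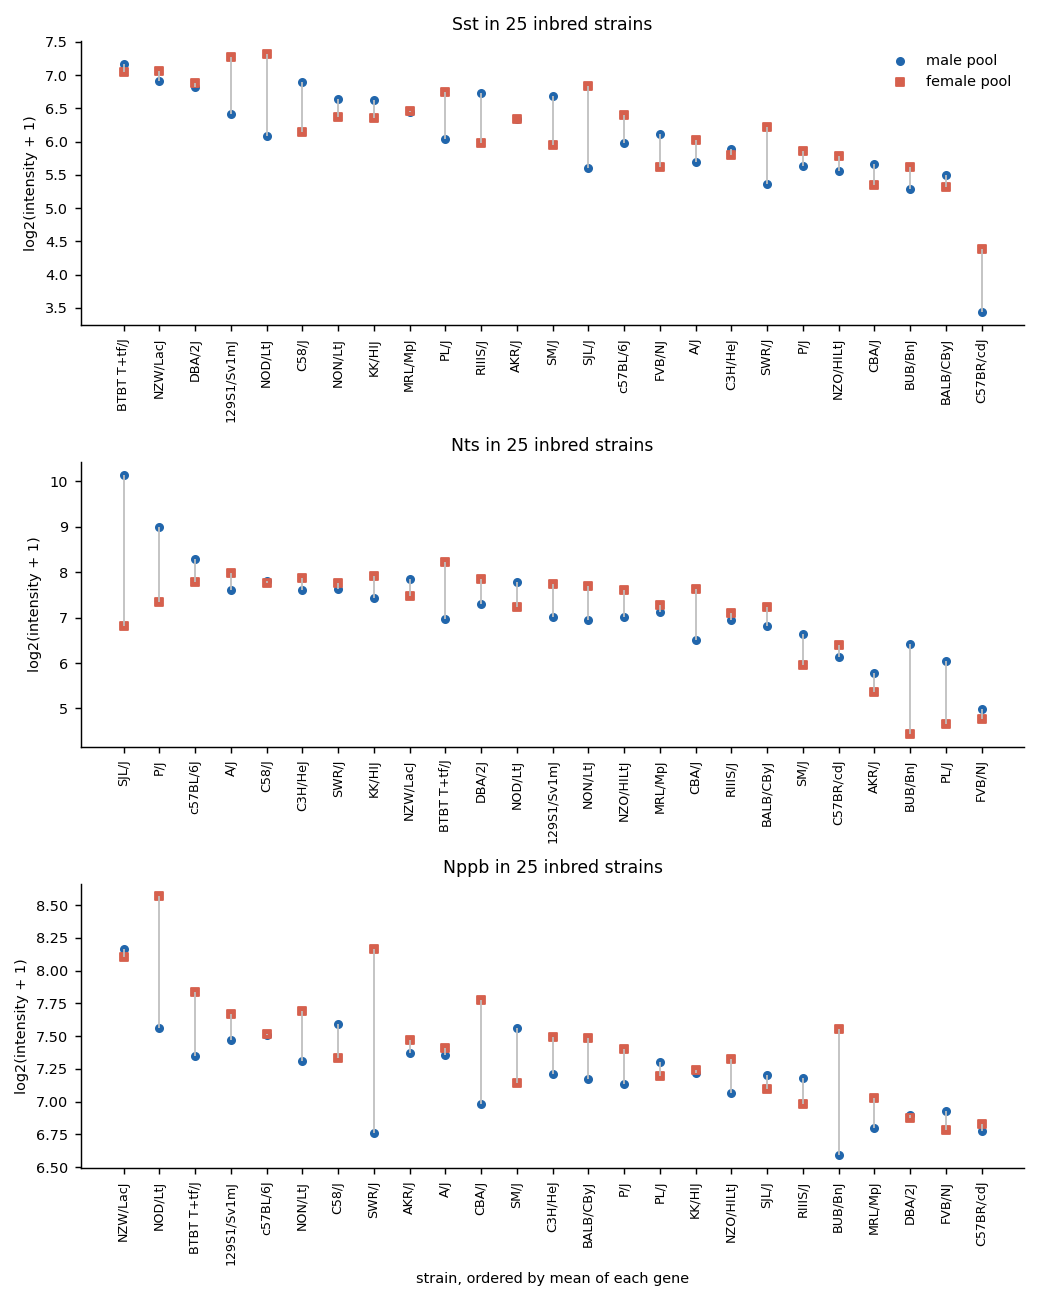
Levels of Sst, Nts and Nppb (vertical axes, log2 of intensity + 1) in the male (blue circles) and female (red squares) pool of each strain, each gene ordered by its own strain mean, with grey lines joining the pools. C57BR/cdJ lies below all other strains for Sst, the Nts pools of SJL/J are 3.33 apart, and the vertical scale of Nppb spans less than the others.

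Of the receptor genes, Osmr was called. It encodes the oncostatin M receptor chain that pairs with the Il31ra product, and its leading probe set had a range of 1.71 or 3.27-fold (limma F test, adjusted p = 0.000488). NOD/LtJ read 8.93 and 9.37 and C57BR/cdJ 9.13 and 8.97, the 2 highest strains, and MRL/MpJ read 8.05 and 7.64 and SM/J 7.10 and 7.79, the lowest. SM/J also had the highest strain means of the muscle genes Acta1, Ckm and Mylpf, whose part in its Osmr level was not tested. Without SM/J and PL/J the range of Osmr was 1.31 and Osmr was still called (adjusted p = 0.00405, limma). No neighbouring strains were apart in both pools. The second probe set of Osmr, with a range of 2.16 and an adjusted p of 0.183 (limma), was highest in the same strains, C57BR/cdJ at 5.79 and NOD/LtJ at 5.69, and lowest in BTBT T+tf/J at 3.64, whose arrays read 2.52 and 4.76. The strain means of these 2 probe sets correlated at r = 0.51 (permutation p = 0.00895, adjusted over 4 probe set pairs 0.0179) and rho = 0.59 (permutation p = 0.00222), and at r = 0.55 without SM/J and NOD/LtJ.

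Il31ra, which encodes the chain that binds interleukin 31, was not called for strain by either probe set. Its leading probe set ran from 5.60 (male MRL/MpJ) over a median of 6.24 to 6.82 (female 129S1/Sv1mJ), and strain means ran from C58/J at 6.65, c57BL/6J at 6.62 and BTBT T+tf/J at 6.60 to MRL/MpJ at 5.87 and PL/J at 5.86 (range 0.79, limma F test, adjusted p = 0.154). The second probe set ranged over 1.42 (limma, adjusted p = 0.0568), from BTBT T+tf/J at 5.88 to SWR/J at 4.46. The order of strains was not shared between them beyond the spread, with r = 0.31 (permutation p = 0.131) and rho = 0.23 (permutation p = 0.273).

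Cysltr2 was near the floor of the array. Of the 50 arrays, 48 lay below 4, the median was 3.09, and the exceptions were the female arrays of NOD/LtJ at 4.24 and SWR/J at 4.31. The male arrays of the same strains read 3.21 and 3.04. Its range of 0.73 did not pass the threshold (adjusted p = 0.382, limma), and statements on Cysltr2 below rest largely on these 2 female arrays. NOD/LtJ, highest for Cysltr2 and Osmr and next to highest for Nppb and Mrgpra3, also had the highest mean of the 8 fibroblast and meninges markers, +0.77 around their overall mean. The summed intensity of these markers ran from 8104 to 32807 over the arrays, and their list mean had r = 0.42 with Cysltr2, 0.19 with Nppb, 0.10 with Osmr and 0.07 with Mrgpra3 over 25 strain means. Their part in the NOD/LtJ levels was not tested.

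**Figure D3:**
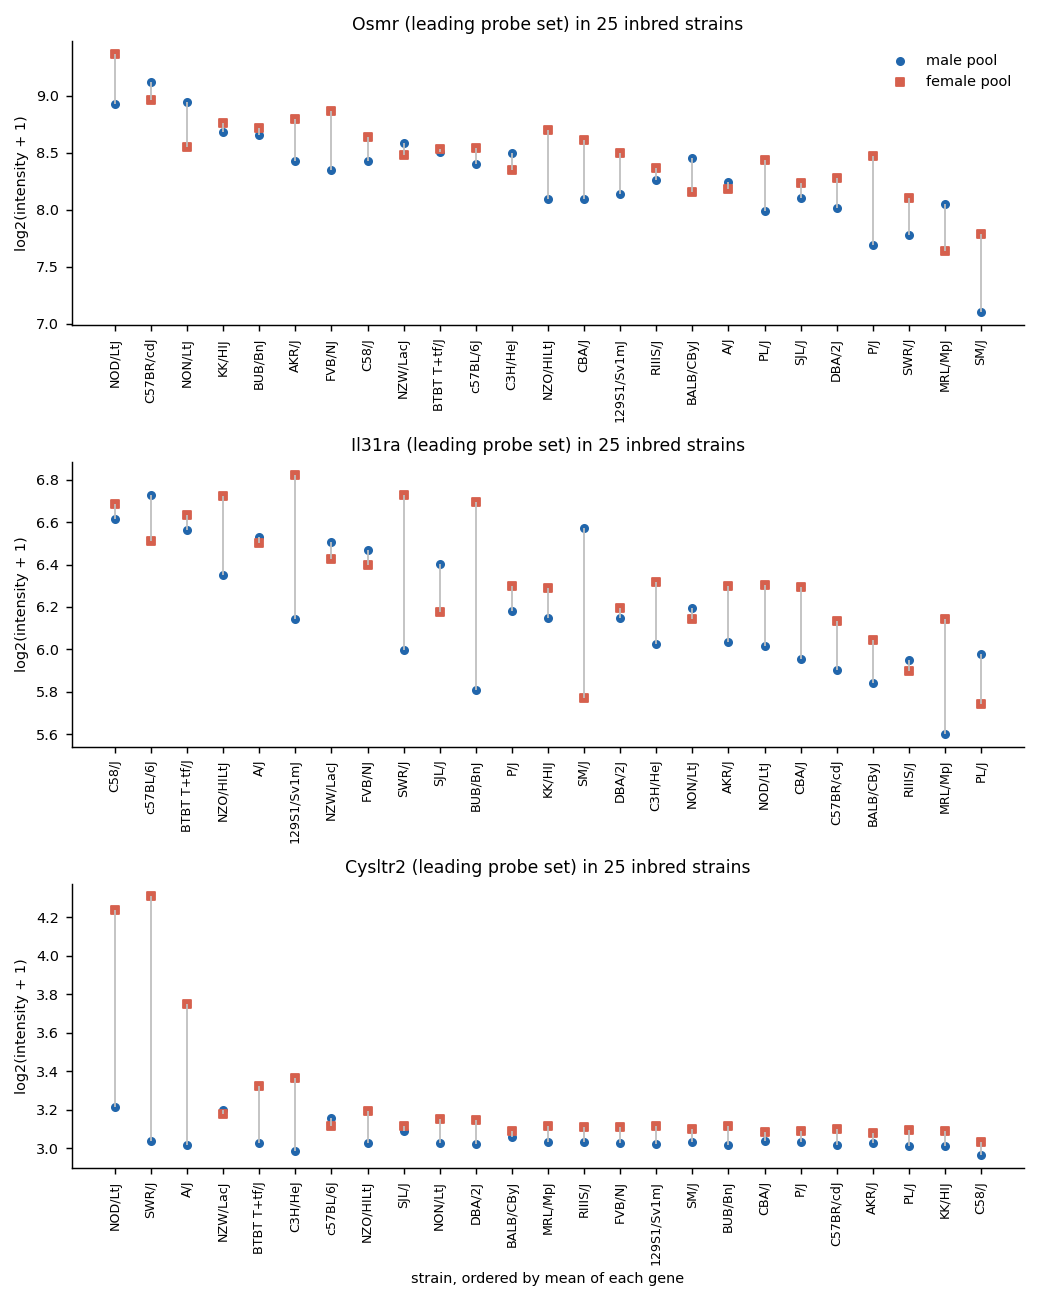
Levels of the leading probe sets of Osmr, Il31ra and Cysltr2 (vertical axes, log2 of intensity + 1) in the male (blue circles) and female (red squares) pool of each strain, each gene ordered by its own strain mean, with grey lines joining the pools. NOD/LtJ and C57BR/cdJ lead for Osmr and SM/J is lowest, while for Cysltr2 only the female pools of NOD/LtJ and SWR/J exceed 4.

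Single strains were set against the mean of the other 24 for each leading probe set, and a call also needed a shift of at least 1 log2 unit. This gave 12 calls, 4 higher and 8 lower, all of them named above, in Mrgpra3, Sst and Nts. Over all probe sets and strains, 0.497% of comparisons were called higher and 0.644% lower. Nppb, Il31ra, Osmr and Cysltr2 had no call in any strain. Osmr in SM/J came closest, at -0.99 (adjusted p = 0.000303, limma), just short of 1 log2 unit. It was called when arrays were centred on their medians, with the pan-neuronal covariate, without SJL/J and in 4 of the 50 fits that left out 1 array.

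How well the pools of a strain agreed was measured by correlating the male with the female arrays over strains. Strains share ancestry, and the permutation p here and for gene pairs takes them as independent, which is a limit of each. The median over all probe sets tested was r = 0.24, with quartiles of 0.07 and 0.44. Sst (r = 0.69, permutation p adjusted over 10 probe sets 0.00123) and Osmr (r = 0.67, adjusted permutation p = 0.00123) agreed best among the genes whose strains form 1 cluster, and Nts followed (r = 0.54, adjusted permutation p = 0.0133). Rank correlations were 0.56 for Sst, 0.61 for Osmr and 0.54 for Nts, with adjusted permutation p of 0.0101, 0.00735 and 0.0109. Without the 2 strains farthest from the median, r was 0.45 for Sst (permutation p = 0.030), 0.51 for Osmr (permutation p = 0.013) and 0.36 for Nts (permutation p = 0.0969), so that the Nts relation rested in part on FVB/NJ and PL/J. Without SJL/J it was 0.70.

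The pools agreed less for the others. Nppb gave r = 0.39 (permutation p adjusted to 0.104) and rho = 0.33 (adjusted permutation p = 0.149), and r = 0.13 without NZW/LacJ and NOD/LtJ. The leading probe set of Il31ra gave r = 0.27 (adjusted permutation p = 0.232) and rho = 0.32, and the second r = 0.36 with rho = 0.56 (adjusted permutation p = 0.110 and 0.0101). Cysltr2 gave r = 0.34 (adjusted permutation p = 0.110), which was -0.06 without NOD/LtJ and SWR/J. The remaining probe sets of Osmr gave r = 0.21 and -0.03. For Mrgpra3, both pools placed the same 4 strains below 4. Within the other 21 strains r was 0.68 (permutation p = 0.00135) and rho 0.46 (permutation p = 0.0369), but without RIIIS/J and NOD/LtJ r was 0.23 (permutation p = 0.347), so the agreement within this group rested on those strains.

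Between the sexes, 4 of the 7 genes were called, against 57.6% of all probe sets tested, a share so high that the count says nothing particular about the itch genes. All 4 were higher in the female arrays. The difference, male minus female, was -0.37 for Mrgpra3 (SE 0.07, adjusted p = 2.74e-05, limma), with the female array higher in 22 of 25 strains. It was -0.22 for Nppb (adjusted p = 0.0247) and -0.18 for Osmr (adjusted p = 0.0198, limma), with the female array higher in 17 and 18 strains. The fourth, Cysltr2, passed the filter only through female arrays and otherwise lay at a floor that itself differs between the sexes, so its difference of -0.20 is not a measure of its level. Of all sex calls, 59.1% were higher in females. When all arrays were brought to 1 distribution, the calls of Nppb (adjusted p = 0.0626) and Osmr (adjusted p = 0.0640, limma) were lost. Without SM/J and PL/J the call of Osmr was lost too (adjusted p = 0.0623), and Il31ra was called at -0.20 (adjusted p = 0.00792, limma).

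Whether the genes rose and fell together was examined in all 21 pairs of leading probe sets, over strain means with each sex centred on its own mean. Because Mrgpra3 falls into separate groups of strains, its 6 pairs were taken over the 21 strains of its upper group. No pair was called after adjustment over the 21 pairs, and 2 had an unadjusted permutation p under 0.05. Of the 15 pairs without Mrgpra3, 13 had a positive r and 12 were positive in the male and in the female arrays alike. Their median r was 0.25, with a range from -0.16 to 0.50. Every Cysltr2 pair among the 15 was positive (0.50 with Nppb, 0.28 with Nts, 0.14 with Il31ra, 0.11 with Osmr and 0.09 with Sst). Cysltr2 was above 4 in only 2 arrays. How often pairs of other genes had a positive r was not counted, so these counts have no reference. The pairs share genes and are not independent of each other. The 6 Mrgpra3 pairs had a median r of 0.04, between -0.23 and 0.41, and whether the 2 kinds of pair differ was not tested.

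**Figure D4:**
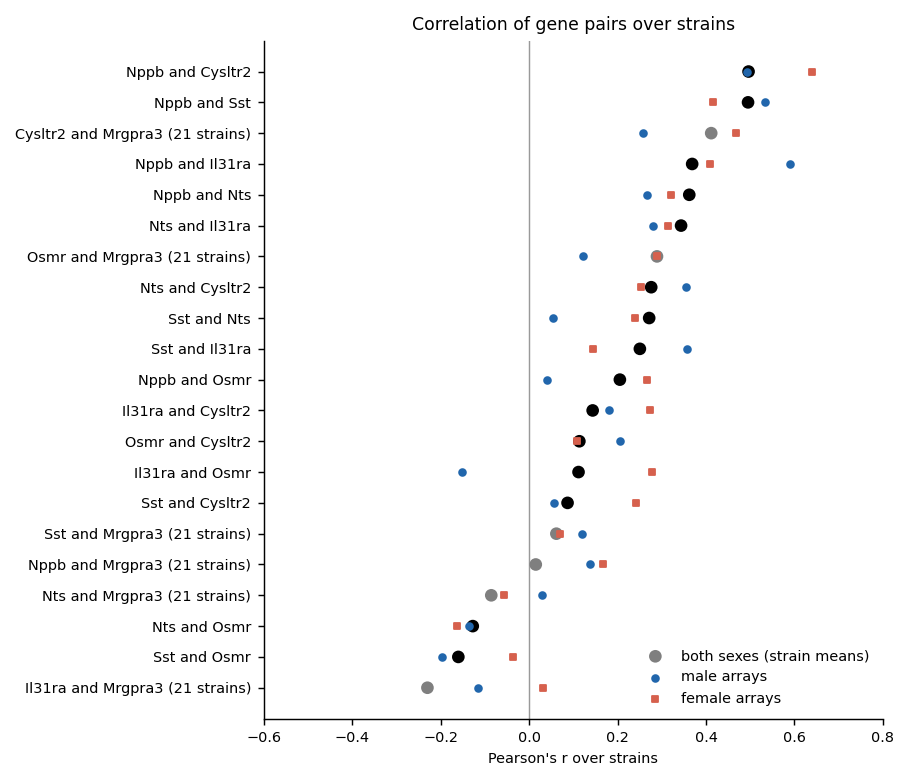
Pearson's r over strains (horizontal axis) for each pair of the 7 genes, ordered by r of the strain means (large circles, black, or grey for pairs with Mrgpra3 over 21 strains), with r of the male (blue) and the female (red) arrays alone. The pairs of Nppb with Cysltr2, Sst, Il31ra and Nts lie at 0.36 to 0.50 in the strain means and are positive in each sex.

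The 3 peptide genes gave 3 positive correlations. Nppb and Sst had r = 0.50 (permutation p = 0.0151, adjusted 0.158) and rho = 0.45 (permutation p = 0.0268, adjusted 0.173), with r = 0.53 in male and 0.42 in female arrays. Without NZW/LacJ and NOD/LtJ, the strains farthest from the median of Nppb, r was 0.40 (permutation p = 0.056). The pair shared its ends, since NZW/LacJ and NOD/LtJ, the leading Nppb strains, ranked within the first 5 for Sst, and C57BR/cdJ was lowest for both. DBA/2J, the strain with the liver transcripts, went the other way, with Sst at 6.85 and Nppb at 6.89, near the bottom of its order, and without it r was 0.60, against 0.38 without C57BR/cdJ. Nppb and Nts had r = 0.36 (permutation p = 0.0740, adjusted 0.311) and rho = 0.39 (permutation p = 0.0577), and Sst and Nts r = 0.27 (permutation p = 0.188, adjusted 0.493) and rho = 0.19 (permutation p = 0.351). Leaving out the 2 farthest strains gave r = 0.37 and 0.20. FVB/NJ, lowest for Nts, was next to lowest for Nppb but sixteenth for Sst at 5.86.

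Among the receptors, Cysltr2 had the same r with Nppb, 0.50 (permutation p = 0.0124, adjusted 0.158), with rho = 0.39 (permutation p = 0.0551, adjusted 0.173). In female arrays alone r was 0.64, but Cysltr2 entered the test only through the female NOD/LtJ and SWR/J arrays, and over both sexes r was 0.28 without NOD/LtJ. The female NOD/LtJ array held the highest Nppb value and the female SWR/J array the highest Cysltr2 value. Nppb and Il31ra had r = 0.37 (permutation p = 0.0694, adjusted 0.311) and rho = 0.39 (permutation p = 0.0564). In male arrays alone r was 0.59 (permutation p adjusted to 0.0298), in female arrays 0.41, and without NZW/LacJ and NOD/LtJ 0.46. Nts and Il31ra had r = 0.34 and rho = 0.53 (permutation p = 0.00758, adjusted 0.159). Il31ra and Osmr, whose products form 1 receptor, had r = 0.11 (permutation p = 0.598, adjusted 0.661) and rho = 0.09, with r of -0.15 in male and 0.28 in female arrays. Osmr had r = -0.16 with Sst and -0.13 with Nts.

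**Figure D5:**
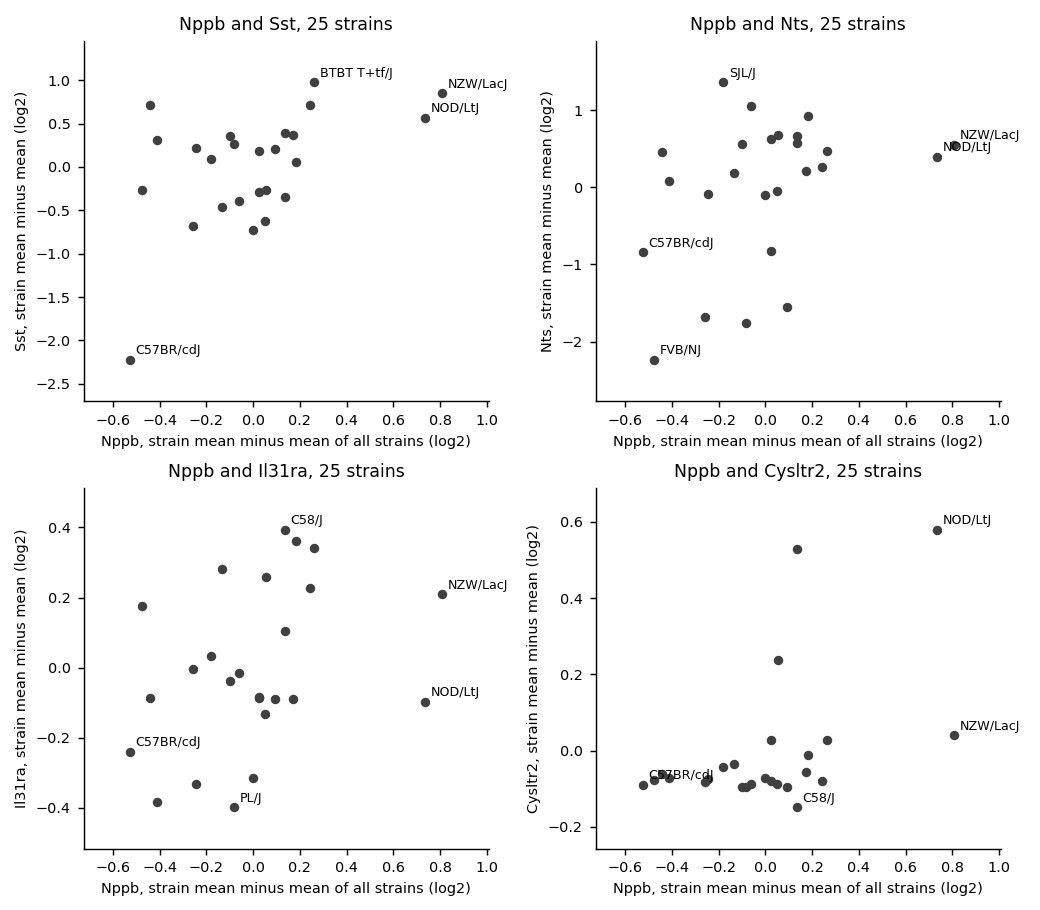
Strain means of Sst, Nts, Il31ra and Cysltr2 (vertical axes) against Nppb (horizontal axes), each as the log2 difference from the mean of the 25 strains with sex means subtracted, 1 point a strain and the outermost strains named. Sst and Nppb share NZW/LacJ and NOD/LtJ at the upper end and C57BR/cdJ at the lower end, and most Cysltr2 points lie flat near the floor of the array.

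Mrgpra3 had r = 0.01 with Nppb (permutation p = 0.948), 0.06 with Sst (permutation p = 0.776), -0.09 with Nts (permutation p = 0.730) and -0.23 with Il31ra (permutation p = 0.325) over the 21 strains. It had 0.29 with Osmr (permutation p = 0.202) and 0.41 with Cysltr2 (permutation p = 0.0605), the latter 0.11 without NOD/LtJ. The 4 strains low in Mrgpra3 had no common level of the peptides. Nppb read 8.14 in NZW/LacJ, 7.50 in NON/LtJ, 7.27 in P/J and 7.15 in SJL/J, which spans the first to the nineteenth place of its order. Sst read 6.98, 6.50, 5.74 and 6.22 in the same strains. Nts read 7.67, 7.32, 8.17 and 8.48, so that the highest and the next to highest Nts strains, SJL/J and P/J, are among the 4. Over all 25 strains Nts and Mrgpra3 had r = -0.39 (permutation p adjusted to 0.311), the most negative of the pairs. The lower of their male and female r was -0.58, which for a negative pair is the stronger of the 2. Over the 21 strains their r was 0.03 in male and -0.06 in female arrays.

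To place these correlations among those of other genes, all 11203 other tested genes were ranked by the lower of their male and female r with Nppb. Sst came 8th, Il31ra 9th and Nts 116th, while Osmr came 2456th. Cysltr2 came 5th, a place that ranks floor values in all but 2 arrays. Mrgpra3 came 10005th over all 25 strains but 1097th over the 21 strains of its upper group. Htr1f, a serotonin receptor gene of the same neurons, came 11th. Among the other listed companions of Nppb, Plcb3 came 359th, Trpa1 1910th, S1pr1 2326th and Jak1 3573rd. The places depend on few strains. Without NOD/LtJ and SWR/J, Cysltr2 came 579th, Htr1f 243rd, Sst 82nd and Il31ra 9th. Without NZW/LacJ they came 151st, 107th, 29th and 7th. Over the 21 strains of the upper Mrgpra3 group they came 213th, 150th, 17th and 9th. Il31ra was within the first 36 places in each of the 8 settings tried. Seen from the other side, Nppb was 5th for Cysltr2, 17th for Il31ra, 26th for Sst and 135th for Nts.

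The genes whose strain pattern was most like each of the 7 were mostly outside the itch pathway. For Nppb they were Cst12 (r = 0.56 in male and 0.62 in female arrays), the cation channel gene Trpc6 (0.57 and 0.53) and the serotonin receptor gene Htr1a (0.59 and 0.53). For Sst they were Slc25a29, Grip2 and Tnip1, with a lower r of 0.54 each. Nts was most like Steap1 (0.58), Cep63 (0.52) and the class II histocompatibility gene H2-Eb1 (0.49), the last of which was lowest in FVB/NJ and highest in SJL/J as Nts was. Il31ra was most like Gm26760 (0.54), Tm2d2 (0.50) and B230216N24Rik (0.49), and Osmr like C1galt1 (0.62), Sec11c (0.61) and Zfp322a (0.61), which were lowest in SM/J as Osmr was. Cysltr2 was most like Uqcc2 (0.54), A930009A15Rik (0.52) and Atp5e (0.51), all highest in NOD/LtJ. Of these genes only Cst12, Trpc6, Tnip1, H2-Eb1, Sec11c, Zfp322a and A930009A15Rik were called for strain. The others were not, among them Steap1 with a range of 0.24 (limma F test, adjusted p = 0.977). All are the extremes of 11203 correlations over 25 strains and are given as a description.

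Mrgpra3 was most like Slc35b2 (0.63 and 0.58), Sdr39u1 (0.53 and 0.54) and Polr1c (0.62 and 0.49) over all 25 strains, and these values reflect where each gene places the 4 low strains. Slc35b2 read 3.53 in SJL/J, 3.53 in NZW/LacJ and 3.39 in NON/LtJ, below its other strains, but 5.59 in P/J, within their range of 4.62 to 5.75. Sdr39u1 read 3.22 in NON/LtJ but 6.61 to 7.03 in the other 3 of them, against 6.64 to 7.41 elsewhere. Polr1c was below the other strains in SJL/J at 6.08 and NZW/LacJ at 5.52 and within their range in P/J and NON/LtJ. None of the 3 genes set all 4 strains apart as Mrgpra3 did.

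Genes of the IL-31 and oncostatin M pathway outside the 7 had 8 of 12 tested, and 2 were called for strain, against the 24.7% given above. Il6st, which encodes gp130, the signalling chain shared by receptors of this cytokine family, ranged over 2.78, with SWR/J highest at 11.91 and c57BL/6J lowest at 9.13. Stat3, the transcription factor downstream of it, ranged over 1.21, from SJL/J to 129S1/Sv1mJ. The kinase genes Jak1, Jak2 and Tyk2 were tested and not called, and the ligand genes Il31 and Osm lay below the filter. Of the 5 companions of Nppb in its neurons, all tested, Htr1f and Trpa1 were called. Htr1f ranged over 2.88, from NZO/HILtJ at 5.87 to MRL/MpJ at 2.99, and Trpa1, an irritant-gated channel, over 1.77.

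Of 21 other itch receptors 8 were tested and 5 called, Htr1f among them, against the same 24.7% of all tested probe sets. The interleukin 4 receptor gene Il4ra ranged over 1.97, from c57BL/6J at 6.20 to SM/J at 4.23, and the thrombin receptor gene F2r over 1.95, from CBA/J at 9.79 to C58/J at 7.84. Of 21 genes for peptide receptors and peptide processing, 10 were tested and 4 called, again against 24.7%. Pam, whose enzyme amidates peptides, ranged over 4.24, from KK/HIJ at 8.53 to SJL/J at 4.29, the neurotensin receptor gene Ntsr2 over 2.87, from 129S1/Sv1mJ at 5.86 to KK/HIJ at 2.99, and the peptide gene Nmb over 1.65. The receptor genes Npr1, Ntsr1, Sstr1, Sstr2, Sstr3, Sstr5 and Grpr lay below the filter. Of 11 channels of itch transduction 7 were tested and 4 called (24.7% of all tested probe sets), the widest being Trpa1, Trpv1 at 1.27 and the sodium channel gene Scn10a at 0.62.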

How the data were processed

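Each array's deposited column holds linear intensities. Per the submitters' processing notes, the authors made them by GCRMA, a background correction and normalization of probe signals, run in R 2.6.2. They ran from 1.63 to 36604, so log2(value + 1) was used. Of 45101 probe sets, 64 controls were left out, and names came from the platform annotation, with positions from RefSeq (GRCm38.p6). No label says how the arrays were grouped for normalization.

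Probe sets above log2 4 in at least 2 arrays (22205) were fitted with limma 3.58.1 (R 4.3.3, lmFit and eBayes): strain with sex as a term, sex with strain as a block, and each strain against the other 24. Benjamini-Hochberg adjustment covered every probe set tested and, for single strains, every pair of probe set and strain. The fits were tested on simulated data. Correlations used two-sided permutation tests of 100000 resamples (numpy 2.4.6, scipy 1.17.1). These tests shuffle strains as if they were independent, but inbred strains share ancestry and are not fully independent. P-values of the limma fits measure the spread between the pools of a strain, whose number limits the precision. Those of the permutation tests measure how often shuffled strains gave a correlation at least as large. Alternatives were other pseudocounts, filters and normalizations, a pan-neuronal covariate, and arrays or strains left out.

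The 7 genes and the gene lists were chosen with earlier results of these data known. By the rule for names, all probe sets of the 7 genes are named, the 3 genes most like each (lower of the male and female r), and up to 3 called genes of each pathway list with the widest range. Places beyond these, and genes named as not called, were chosen after their values were seen.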

Additional observations from a re-analysis of the deposited data

How the results depend on the processing

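Between 4 and 6 genes were called for strain over all alternatives, with 4 to 6 when single arrays were left out. Mrgpra3, Sst, Nts and Osmr stayed called in each of those left-out-array fits. Nppb was also called with a pseudocount of 16 (adjusted p = 0.0496, limma), robust variances with a trend (0.0488) and the stricter filter (0.0446). For sex, 2 genes were called after quantile normalization, and 4 to 5 with 1 array left out. The single-strain calls numbered 25 with no minimum difference, and 9 to 14 with 1 array left out. The male to female correlations called numbered 3 to 5 with 1 strain left out, and that of Nts was lost without SM/J and PL/J (adjusted permutation p = 0.0546).

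No pair of genes was called over both sexes with any 1 strain left out. In male arrays alone 2 were called, 1 of them Nppb with Il31ra (permutation p adjusted to 0.0298). In female arrays alone 1 was (Nppb with Cysltr2, whose other arrays lie at the floor). The other male call was a Mrgpra3 pair over 25 strains, since no further pair without Mrgpra3 was called in male arrays. Of the Mrgpra3 pairs, that with Nts had the lowest r in a single sex, -0.58, over strains that include those below 4. Over the 21 strains of the upper group its r was 0.03 in male and -0.06 in female arrays. Unless the 21 strains are named, Mrgpra3 pairs within each sex were taken over 25 strains in these alternatives. In male arrays alone r turned to -0.15 for Il31ra with Osmr. For Cysltr2 with Mrgpra3, r over 25 strains was 0.17 in strain means and -0.28 in male arrays. Over the 21 strains this pair did not turn, with 0.41 in strain means and 0.26 in male arrays. For Il31ra with Mrgpra3, r over 25 strains was -0.11 in strain means and 0.10 in female arrays. Over the 21 strains these values were -0.23 and 0.03. Over 21 strains in place of 25, r turned to 0.015 for Nppb with Mrgpra3 and to 0.062 for Sst with Mrgpra3. Without NOD/LtJ, the lowest of the left-out-strain values, r was -0.0010 for Nppb with Osmr (at most 0.38), -0.041 for Sst with Cysltr2 (at most 0.19), -0.26 for Osmr with Cysltr2 (at most 0.35) and -0.0039 for Osmr with Mrgpra3 (at most 0.19 over 25 strains). The left-out-strain r ran from -0.27 to 0.15 for Sst with Osmr, and the r of Nppb and Mrgpra3 from -0.37 to 0.00081 over 25 strains. Without the 2 strains farthest from the median of the first gene, r turned to -0.087 for Nppb with Osmr, 0.14 for Sst with Osmr, -0.0078 for Sst with Cysltr2, -0.38 for Osmr with Cysltr2 and -0.094 for Cysltr2 with Mrgpra3. The male to female r of Cysltr2 was -0.063 without its 2 farthest strains and -0.028 to 0.47 with 1 strain left out, and that of the third Osmr probe set -0.21 to 0.16. The cause of these changes was not tested.

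With 1 array per sex, differences between neighbouring strains are mostly within the error, levels below 4 have no reliable order, and sequence differences between strains under a probe were not tested.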

Other observations

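The genome neighbours of Mrgpra3 were looked at for the same 4 strains, among 60 genes on each side, of which 19 were tested and 7 called for strain, against 24.7% of all tested probe sets. Nell1, a secreted growth factor gene 55 genes away, read 7.29 in SJL/J, 6.95 in NZW/LacJ and 6.78 in P/J, above its range of 3.67 to 5.94 in the 21 strains, and 5.08 in NON/LtJ, within that range. Tmem86a, 17 genes away on the other side, read 5.66 in SJL/J, 5.89 in NZW/LacJ and 5.72 in P/J, below its range of 6.07 to 6.58, and 6.36 in NON/LtJ, within it. These 2 genes were chosen after their values were seen, and no test was made.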
